A study of Mus musculus with 16 samples.

Results

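Mandibular first molars were compared with maxillary first molars of the mouse embryo, so that the jaw differed while the tooth class was the same. The samples numbered 5 to 8 of the mandibular molars and 1 to 4 of the maxillary molars were taken, which are 8 of the 16 samples of the series. Mandibular molars 1 to 4 and the 4 lower incisor samples did not enter the test and are given only as values beside it. Each sample was total RNA from a pool of 4 microdissected tooth germs of C57Bl6 embryos at E14.5, hybridized to 1 Affymetrix Mouse Gene 1.0 ST array. No sample was genetically modified or treated. A pool held both the epithelium and the mesenchyme of the germ and whatever tissue was dissected with it, and which embryos or litters gave each pool is not stated, so every p-value rests on the variation from pool to pool, which may be technical.

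Signals are on a log2 scale, where a difference of 1 is a fold change of 2, and every difference is given as mandibular minus maxillary. The 8 arrays had medians of 6.87 to 6.92 in mandibular and 6.86 to 6.91 in maxillary molars. Correlations across probe sets, which are not independent replicates, were 0.9891 to 0.9944 within mandibular molars 5 to 8, 0.9924 to 0.9942 within maxillary molars and 0.9884 to 0.9939 between the groups. A signal above 5 in at least 1 of the 8 samples was reached by 28686 probe sets, of which 17078 genes were each represented by the probe set with the highest mean. Markers of the labelled tissue were present in both jaws. *Krt14*, a keratin of basal epithelium, had 11.46 to 11.73 in mandibular and 11.21 to 11.56 in maxillary molars. *Barx1*, a homeobox gene of molar mesenchyme, had 11.26 to 11.44 and 11.44 to 11.70, and *Shh*, the signal of the enamel knot, had 9.70 to 9.99 and 9.60 to 9.80.

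Both jaws form from the first pharyngeal arch. In its mandibular part, endothelin signalling turns on *Dlx5* and *Dlx6*, which with *Hand* genes and *Pitx1* give lower jaw identity, while the maxillary part expresses *Dlx1* and *Dlx2* without *Dlx5* and *Dlx6* and carries upper face genes such as *Pou3f3*. Molar germs at the cap stage consist of an enamel organ with a signalling centre, the enamel knot, above a condensed dental papilla. Upper and lower molars use the same FGF, BMP, Wnt and hedgehog signals, yet grow into teeth with different cusp patterns.

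Between the jaws 31 of the 28686 probe sets differed at an adjusted p under 0.1 and a fold change above 2 (0.108% of those tested; limma with Benjamini-Hochberg adjustment). Of these, 13 were higher in mandibular molars (0.0453%) and 18 were lower (0.0627%). The groups did not overlap at any of the 31, as they did not at 7.96% of all probe sets. They stood for 13 genes that were higher and 15 that were lower, and the remaining one had no gene symbol. At a fold change above 1.2, the threshold used for gene lists from here on, 155 probe sets were higher (0.54%) and 213 lower (0.743%), and these are called changed below. The groups did not overlap at any of these 368 either, so a lack of overlap adds no support to a call. The median difference over all genes was 0.02, and the median of the called differences was 0.41 among the higher and -0.49 among the lower probe sets. The largest difference was that of *Nmbr* at -2.17. In such bulk samples fewer cells of a type and less RNA per cell cannot be told apart.

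The number of samples limits these counts. With 1 sample left out at a time, the higher probe sets at a fold change above 1.2 numbered 34 (without maxillary molar 2) to 167 and the lower ones 79 (without maxillary molar 2) to 206. At a fold change above 2 the higher ones fell to 6 without maxillary molar 2, to 7 without maxillary molar 1 or 3 and to 9 without mandibular molar 6 or 8, while the lower ones numbered 17 to 26. Of 61 genes with a call that are described by name below, 32 passed whichever of the 8 samples was left out, and the other 29 lost their call at least once. With mandibular molars 1 to 8 in place of 5 to 8, 635 probe sets passed the lower threshold and 289 of them were among the 368 (1.28%) of the comparison with 5 to 8.

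**Figure D1:**
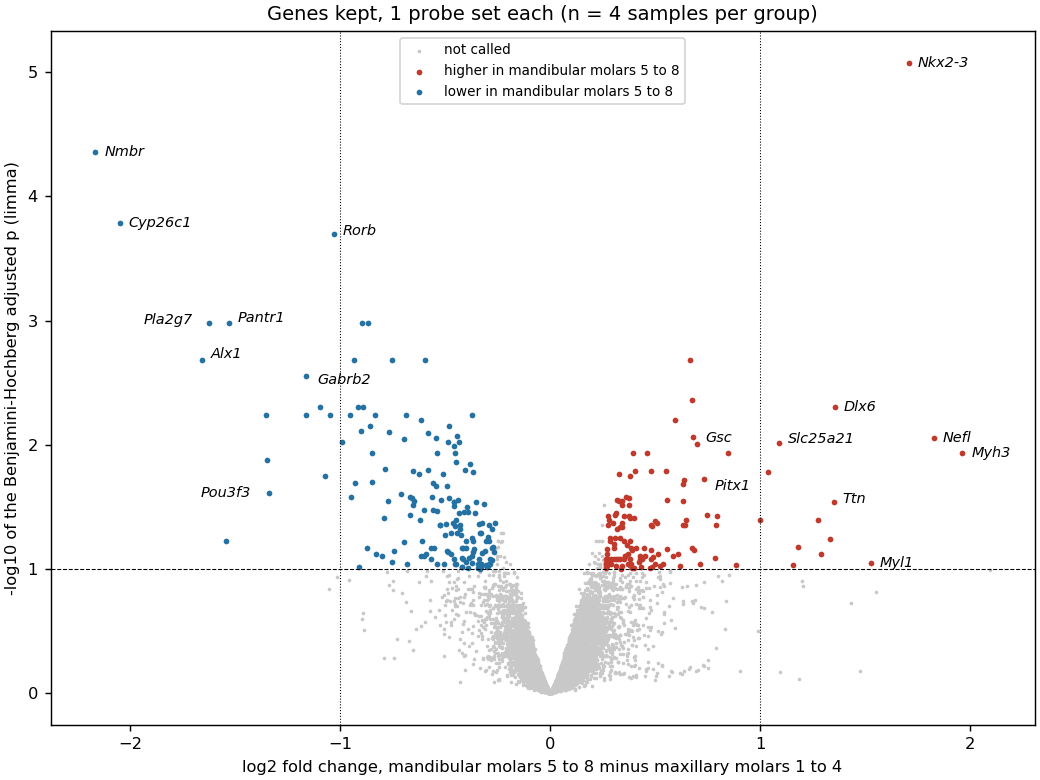
Difference between the jaws for 17078 genes, 1 probe set each. The x axis is the log2 fold change of mandibular molars 5 to 8 minus maxillary molars 1 to 4, the y axis -log10 of the Benjamini-Hochberg adjusted p of limma. Red and blue points passed an adjusted p under 0.1 (dashed line) and a fold change above 1.2, and dotted lines mark a fold change of 2. *Nkx2-3* on the right and *Nmbr* and *Cyp26c1* on the left have the lowest adjusted p.

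*Nkx2-3*, *Dlx6*, *Pitx1* and *Gsc* of the lower jaw patterning list were higher in mandibular molars. *Nkx2-3*, a homeobox gene of pharyngeal epithelium, had signals of 8.39, 8.31, 8.27 and 8.31 in mandibular molars 5 to 8 and 6.56, 6.55, 6.70 and 6.63 in maxillary molars 1 to 4. The samples of a jaw lay within 0.15 of one another and the jaws were far apart (log2 fold change 1.71, standard error 0.05, limma adjusted p = 8.38e-06). *Dlx6* had 9.10, 9.06, 9.37 and 8.74 against 7.74, 7.83, 7.52 and 7.76 (1.36, standard error 0.13, limma adjusted p = 0.00496). Mandibular molar 8 was the lowest of its group and still 0.91 above the highest maxillary sample. *Dlx5*, its partner in the cluster, had means of 10.98 and 10.44 (0.55, limma adjusted p = 0.136) and did not pass.

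*Pitx1*, a paired-like gene of the lower jaw and hindlimb, had signals of 10.71, 10.87, 10.65 and 10.82 in mandibular and 9.79, 9.96, 10.14 and 10.22 in maxillary molars. *Gsc* (goosecoid), a homeobox gene downstream of endothelin signalling in the arch, had 8.10, 8.31, 8.05 and 8.03 against 7.41, 7.34, 7.58 and 7.36. Their differences were 0.73 and 0.70, with limma adjusted p of 0.0189 and 0.0098. The groups did not overlap at either gene, as at every called probe set. The genes of the list numbered 20, of which 4 passed upward against 0.755% of all genes, and *Cited1*, a transcriptional cofactor, passed downward with -0.67 (limma adjusted p = 0.0367), a call lost without mandibular molar 5 or maxillary molar 2. *Hand1* and *Hand2* both had a difference of 0.15 and did not pass (limma adjusted p = 0.437 and 0.358). The list was written with earlier results of these samples known, so its count is a description and no independent evidence.

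Upper jaw patterning genes were lower in mandibular molars. *Alx1*, an aristaless-like gene of the frontonasal and maxillary mesenchyme, had 6.77, 7.06, 7.21 and 6.71 in mandibular molars and 8.70, 8.76, 8.55 and 8.38 in maxillary molars, a gap of more than 1 between the nearest samples (-1.66, standard error 0.13, limma adjusted p = 0.00206). *Pou3f3*, a POU factor of the maxillary arch, had 7.75, 7.66, 8.56 and 7.66 against 9.27, 9.22, 9.25 and 9.25 (-1.34, standard error 0.19, limma adjusted p = 0.0245). Its maxillary samples spanned 0.05, whereas mandibular molar 7 stood 0.81 above the next mandibular sample. *Pantr1*, a noncoding transcript and the neighbour of *Pou3f3*, had 5.75, 5.70, 5.97 and 5.81 against 7.20, 7.61, 7.15 and 7.38 (-1.53, limma adjusted p = 0.00105), and mandibular molar 7 was the highest of its group there too.

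*Six2*, a homeobox gene of facial mesenchyme, had 10.73, 10.83, 10.37 and 10.72 against 11.46, 11.26, 11.44 and 11.34 (-0.71, limma adjusted p = 0.025). *Dlx1*, which acts in upper and lower arch alike, had 9.88 to 10.02 against 10.30 to 10.41 (-0.37, limma adjusted p = 0.0166), while *Dlx2* had -0.25 (limma adjusted p = 0.165), or -0.44 with mandibular molars 1 to 8 in the fit. The Iroquois genes *Irx3* and *Irx5* also passed, at -0.59 and -0.44. In all 7 of 13 members were lower, against 0.96% of all genes, none was higher, and the list median was -0.37. This list, too, was written with earlier results of these samples known, so the count is no independent evidence. The count was 7 whichever sample was left out, and 4 with all 16 samples of the series in the fit, but 7 when the lower incisors were left out of that fit.

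Outside these lists, *Lhx9*, a LIM homeobox gene, had 6.76, 6.52, 6.61 and 6.52 in mandibular against 5.93, 5.77, 6.05 and 6.09 in maxillary molars (0.64, limma adjusted p = 0.0193). *Pax9*, which is needed for teeth to pass the bud stage, had 10.92, 10.82, 10.72 and 10.91 against 10.41, 10.39, 10.52 and 10.54. The difference of *Pax9* was 0.38 (limma adjusted p = 0.0391), a call lost without mandibular molar 5 or 6 or maxillary molar 1 or 2, where the adjusted p was 0.107 to 0.13. *Lhx9* and *Pax9* were the 2 of 23 genes of the tooth homeobox list that passed upward (0.755% of all genes), and none of the 23 passed downward. The homeobox genes *Alx1*, *Six2* and *Dlx1*, which were lower, were counted in the upper jaw list and not in this one. Of the 23, at an unadjusted p under 0.05, 8 were higher (9.11% of all genes) and 4 lower (5.62%). The groups did not overlap at 4 that were higher (5.66% of all genes) and 3 that were lower. *Lhx6* and *Lhx8*, LIM homeobox genes of the dental mesenchyme, had -0.39 and -0.26 (limma adjusted p = 0.113 and 0.103). *Msx1* had -0.29 (95% confidence interval -0.51 to -0.08, limma adjusted p = 0.242), *Msx2* -0.20 (-0.45 to 0.05, limma adjusted p = 0.505) and *Barx1* -0.19 (-0.35 to -0.04, limma adjusted p = 0.279). With mandibular molars 1 to 8 in the fit *Msx2* had -0.63 (limma adjusted p = 0.268). Of 31 Hox genes above the signal limit none passed by limma, 2 had an unadjusted p under 0.05, both higher in mandibular molars (9.11% of all genes), and the methods' t-test also called none.

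**Figure D2:**
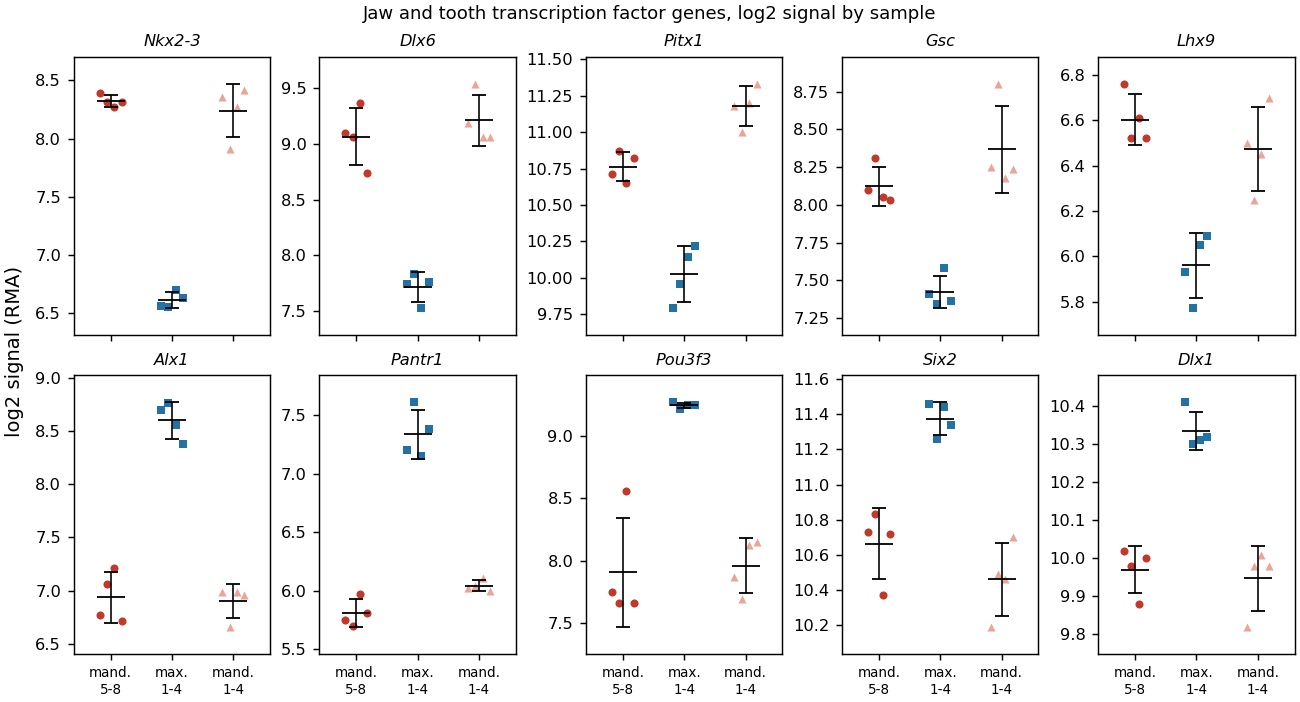
Log2 signal of 10 transcription factor and patterning genes by sample, in mandibular molars 5 to 8 (circles), maxillary molars 1 to 4 (squares) and, outside the test, mandibular molars 1 to 4 (triangles). Bars show the mean and SD of 4 samples, and each panel has its own y axis. In every panel the circles and squares do not overlap, as at every called probe set. Mandibular molar 7 is the high circle of *Pou3f3*.

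The untested mandibular molars 1 to 4 were of the same tooth class, and their means are given beside the above. For *Nkx2-3* they had a mean of 8.24 ± 0.23 (SD, n = 4), for *Dlx6* 9.21 ± 0.23, for *Pitx1* 11.18 ± 0.13 and for *Gsc* 8.37 ± 0.29. For *Alx1* they had 6.90 ± 0.16, for *Pou3f3* 7.96 ± 0.22 and for *Six2* 10.46 ± 0.21. The lower incisors had 10.99 to 11.70 for *Alx1*, 7.88 to 9.13 for *Six2* and 7.55 to 8.15 for *Pou3f3*, so that for *Alx1* they were above both molar groups. An array of the lower incisors had high background per the methods, and since the sources used here do not name it, all 4 are included wherever incisors are given.

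*Cyp26c1* and *Cyp26a1*, which break down retinoic acid, were lower in mandibular molars. Retinoic acid is made by Aldh1a enzymes and removed by the Cyp26 cytochromes, which are themselves known to be induced by it. *Cyp26c1* had 7.39, 7.51, 7.69 and 7.73 in mandibular and 9.66, 9.38, 9.75 and 9.73 in maxillary molars (-2.05, standard error 0.10, limma adjusted p = 0.000164), a fold change of 4.14. *Cyp26a1*, the next gene on the chromosome, had 7.03, 7.15, 7.41 and 6.89 against 7.91, 7.88, 7.91 and 7.93 (-0.79, standard error 0.10, limma adjusted p = 0.0156). For both genes every mandibular sample was below every maxillary sample, the groups being apart at every called probe set. The *Cyp26a1* signal varied by only 0.05 among maxillary samples. *Cyp26b1*, the third of the family, had means of 8.42 and 8.51 (-0.10, limma adjusted p = 0.763). The lower incisors, outside the test, had 8.97 to 9.49 for *Cyp26c1* and 6.68 to 7.31 for *Cyp26a1*. For *Cyp26c1* this tooth of the lower jaw was thus above all mandibular molars 5 to 8.

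The promoters of these neighbours are shown because both genes were lower in the same samples. They are the 250 bases before the RefSeq start in GRCm38.p6, both on the plus strand, at chr19:37685430-37685679 for *Cyp26c1* and chr19:37697558-37697807 for *Cyp26a1*, whose starts lie 12128 bases apart. Capitals mark a direct repeat, the kind of element that retinoic acid receptors bind, which was searched as AGTTCA repeated after 5 bases of any kind, on both strands.
Cyp26a1: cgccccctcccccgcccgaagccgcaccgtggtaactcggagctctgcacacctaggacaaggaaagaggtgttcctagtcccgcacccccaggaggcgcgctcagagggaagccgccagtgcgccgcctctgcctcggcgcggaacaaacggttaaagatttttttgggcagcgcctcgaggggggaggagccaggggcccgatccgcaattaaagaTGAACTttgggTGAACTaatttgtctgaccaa
Cyp26c1: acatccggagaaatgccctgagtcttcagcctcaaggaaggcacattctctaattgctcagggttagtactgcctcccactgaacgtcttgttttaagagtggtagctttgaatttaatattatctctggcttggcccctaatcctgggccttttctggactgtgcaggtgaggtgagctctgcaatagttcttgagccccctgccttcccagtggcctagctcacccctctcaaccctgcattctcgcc
The element lies 32 to 16 bases before the *Cyp26a1* start, on the minus strand, and was found in 7 of 32851 promoters of this length (0.0213%). No match was found in the *Cyp26c1* window, which says only that these letters are not in it. Among the 34 promoters of the retinoic acid list, only that of *Cyp26a1* had a match. The search allowed no variant of AGTTCA, and these are the letters of the *Cyp26a1* repeat itself. Its match, the rarity of the element and the lack of others in the list therefore depend on the choice of letters. Repeats with other letters were not searched, so these counts do not show how common such elements are.

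On the synthesis side, *Aldh1a1*, a retinaldehyde dehydrogenase, had 5.93, 5.71, 5.62 and 5.75 against 6.64, 6.84, 6.52 and 6.41 (-0.85, limma adjusted p = 0.0116), and *Aldh1a2* had means of 9.26 and 10.01 (-0.75, limma adjusted p = 0.125). *Rorb*, a nuclear receptor of the ROR group, had 6.84, 6.87, 6.67 and 6.78 against 7.78, 7.79, 7.85 and 7.86, with a difference of -1.03 and a standard error of 0.05 (limma adjusted p = 0.000201). *Dhrs3*, a retinaldehyde reductase, had -0.34 (limma adjusted p = 0.0838). Thus 5 of the 22 measured members of the retinoic acid list, *Rorb* among them, were lower (0.96% of all genes). None was higher (0.755%), and 4 or 5 were lower in the fits that left out a sample. At an unadjusted p under 0.05 there were 7 lower (5.62% of all genes) and 2 higher (9.11%). The list median was -0.04, since the receptors *Rara*, *Rarg* and *Rxra* had differences of 0.09, -0.03 and 0.02 and did not pass.

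*Nmbr*, *Gabrb2* and *Grm3*, which encode receptors of signals between cells, were lower in mandibular molars. *Nmbr*, the neuromedin B receptor, had 6.16, 6.08, 6.38 and 6.28 in mandibular and 8.60, 8.34, 8.36 and 8.26 in maxillary molars (-2.17, standard error 0.09, limma adjusted p = 4.35e-05). *Gabrb2*, a beta subunit of the GABA-A receptor, had 7.16, 6.84, 7.10 and 7.29 against 8.40, 8.19, 8.30 and 8.15, with a difference of -1.16 (limma adjusted p = 0.00279), and its other probe sets gave -1.77 and -1.30. *Grm3*, a metabotropic glutamate receptor, had 5.65, 5.77, 5.94 and 5.66 against 7.01, 6.65, 6.90 and 6.64 (-1.05, limma adjusted p = 0.00577). The groups of these genes stood apart without overlap, as at every called probe set. *Gria1* and *Gria3*, subunits of AMPA receptors, had -0.79 (limma adjusted p = 0.0391) and -0.43 (limma adjusted p = 0.00949), and *Gabra4* -0.33 (limma adjusted p = 0.0999).

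In the list of GABA-A and glutamate receptor subunits, 4 of 19 were lower (0.96% of all genes), none was higher and the median was -0.23. At an unadjusted p under 0.05 there were 10 lower (5.62% of all genes) and 1 higher. The count of 4 was 2 without mandibular molar 5, mandibular molar 6 or maxillary molar 2, and also 2 with all 16 samples in the fit, but 4 when the lower incisors were left out of that fit. *Gria1* lost its call in the fits without those samples, with an adjusted p of 0.102 to 0.114, and *Gabra4* in all but that without mandibular molar 8, with 0.148 to 0.238. Of the general neuronal markers, *Tubb3* and *Stmn2* had 0.07 and -0.26 and did not pass (limma adjusted p = 0.851 and 0.675).

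Other genes lower in mandibular molars by a fold change above 2 were *Pla2g7*, which encodes a secreted phospholipase that inactivates platelet-activating factor (-1.62, means of 7.79 and 9.41), *Ppef1*, a phosphatase with EF hands (-1.35), *Slc10a4*, a vesicular carrier of the bile acid transporter family (-1.35), *Lrfn5*, a synaptic adhesion protein (-1.16), *Rtn4rl1*, a Nogo receptor homologue (-1.10), and *Kcnb2*, a potassium channel (-1.07). Their limma adjusted p lay between 0.00105 and 0.0178. *Ndst4*, a heparan sulfate sulfotransferase, had 4.42, 4.47, 4.37 and 4.69 against 6.97, 5.83, 5.73 and 5.59, so that its mandibular samples were all below 5 and maxillary molar 1 stood above the rest (-1.54, limma adjusted p = 0.0598). Its call was lost when values under 5 were set to 5 (adjusted p = 0.164) and without any one of mandibular molars 5 to 8 or maxillary molar 2 or 3 (0.108 to 0.163). The probe set without a symbol, 10385297, had 8.20, 8.19, 8.23 and 8.25 against 9.56, 9.54, 9.62 and 9.48 (-1.33, standard error 0.04, limma adjusted p = 8.85e-06).

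**Figure D3:**
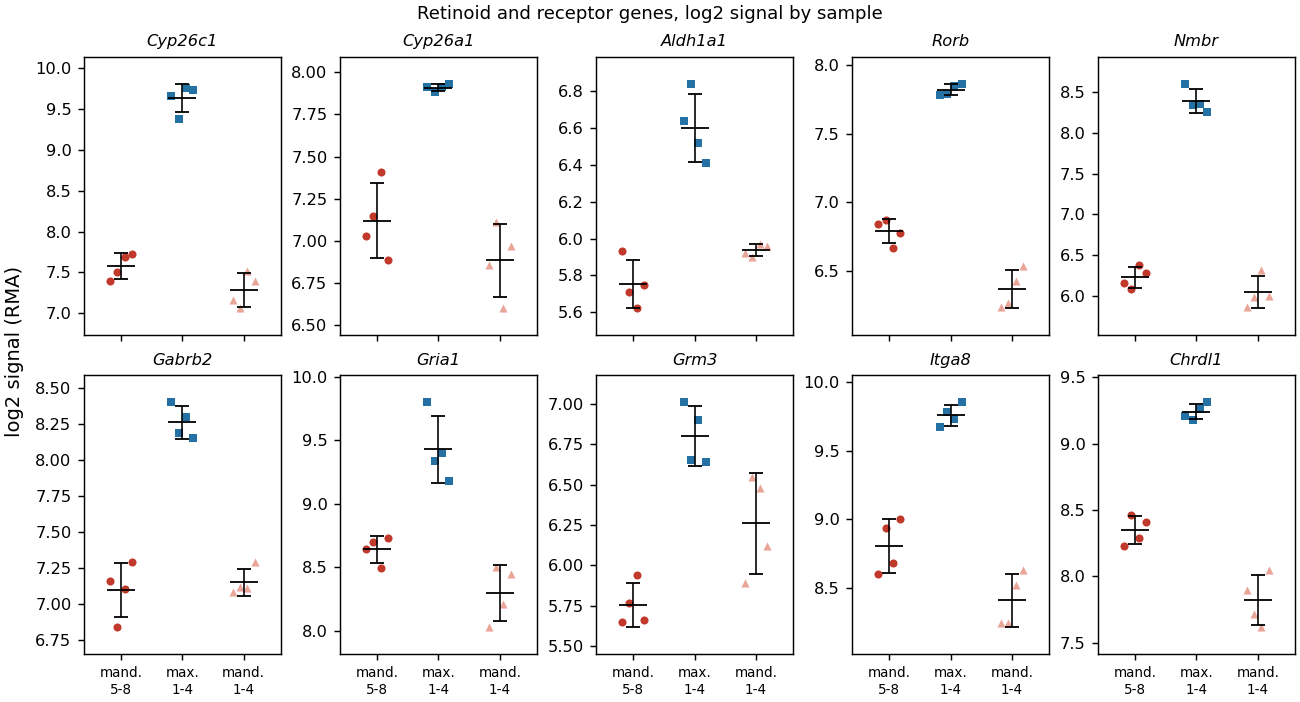
Log2 signal of 10 retinoid, receptor and cell surface genes by sample, in mandibular molars 5 to 8 (circles), maxillary molars 1 to 4 (squares) and, outside the test, mandibular molars 1 to 4 (triangles). Bars show the mean and SD of 4 samples, and each panel has its own y axis. The squares lie above all circles in every panel, and the groups are apart at every called probe set.

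The signalling pathways that shape the crown differed at few members. In the FGF list 4 of 27 were higher (0.755% of all genes) and none was lower (0.96%). At an unadjusted p under 0.05 there were 6 higher (9.11% of all genes) and 3 lower (5.62%). *Fgf18*, a ligand made in tooth and bone mesenchyme, had 9.51, 9.58, 9.16 and 9.59 in mandibular and 9.04, 9.04, 8.83 and 9.02 in maxillary molars (0.47, limma adjusted p = 0.0976). *Fgfr4*, a receptor, had 0.41 (limma adjusted p = 0.0676), and the feedback inhibitors *Spry2* and *Spry1* had 0.37 and 0.32 (limma adjusted p = 0.0758 and 0.0477). Mandibular samples were above all maxillary ones at each of these genes, and the groups were apart at every called probe set. The count was 0 without mandibular molar 5, maxillary molar 1 or maxillary molar 2, 1 without mandibular molar 6 or maxillary molar 3 or 4, 2 without mandibular molar 7, 3 without mandibular molar 8, 1 with all 16 samples in the fit and 2 with the 12 molar samples. The enamel knot ligands *Fgf4*, *Fgf9* and *Fgf20* had 0.32, -0.27 and 0.10 and did not pass.

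In the BMP and TGF-beta list 2 of 41 were lower (0.96% of all genes) and 1 was higher (0.755%). *Chrdl1*, a secreted BMP antagonist, had 8.23, 8.46, 8.29 and 8.41 against 9.21, 9.18, 9.26 and 9.31 (-0.90, standard error 0.06, limma adjusted p = 0.00105), and no sample of one jaw came within 0.7 of the other. *Smad9*, a BMP signal transducer, had -0.44 (limma adjusted p = 0.0276). *Gdf10*, a ligand of the family, had 0.48 (limma adjusted p = 0.07), which was lost without any one of mandibular molars 5 to 8 or maxillary molar 1 or 2 (0.116 to 0.164). *Bmp4* was at 11.45 ± 0.06 and 11.48 ± 0.12 (SD, n = 4 each), a difference of -0.03 with a 95% confidence interval of -0.17 to 0.12. Mandibular molars 1 to 4, outside the test, had 10.62 to 11.02 for *Bmp4*, below every sample of both groups. The small difference therefore holds for mandibular molars 5 to 8 only.

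Over all genes 0.755% were called higher and 0.96% lower. Of the 48 genes of the Wnt list *Wnt10a*, expressed in the enamel knot, passed with 0.39 (limma adjusted p = 0.07), and it lost the call without any sample but mandibular molar 7 and maxillary molar 4 (0.104 to 0.19). The ligands *Wnt2* and *Wnt2b*, not counted there, were called lower in mandibular molars. *Wnt2* had -0.75 (limma adjusted p = 0.0875), a larger change than that of *Wnt10a*. Of 13 hedgehog genes *Gas1*, a co-receptor, passed with 0.31 (limma adjusted p = 0.0567), lost without mandibular molar 5, 6 or 8 or maxillary molar 1 or 2 (0.104 to 0.162), while *Shh* had 0.16 (-0.01 to 0.33, limma adjusted p = 0.421) and its target *Gli1* -0.14 (-0.27 to 0.00, limma adjusted p = 0.398). With mandibular molars 1 to 8 in the fit *Shh* turned to -0.34 and *Gli1* had -0.48 (limma adjusted p = 0.594 and 0.218). Mandibular molars 1 to 4 alone had 8.83 ± 0.77 for *Shh* and 9.20 ± 0.02 for *Gli1* (SD, n = 4). Of 21 Notch genes 2 were higher, the ligand *Dll1* with 0.28 (limma adjusted p = 0.04) and the ubiquitin ligase *Dtx4* with 0.35 (limma adjusted p = 0.0832). *Dll1* lost its call without mandibular molar 5 or maxillary molar 1, 2 or 3 (0.0943, with a fold change under 1.2, to 0.127), and *Dtx4* without mandibular molar 5, 6 or 8 or maxillary molar 1, 2 or 3 (0.144 to 0.213). None of 9 ectodysplasin pathway genes passed by limma, with 5 at an unadjusted p under 0.05 being 3 higher (9.11% of all genes) and 2 lower (5.62%).

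The dental epithelium and dental mesenchyme lists had medians of opposite sign. All 18 dental epithelium genes had differences of 0 or above, with a median of 0.15, yet none passed by limma. Of them 6 had an unadjusted p under 0.05, all higher (9.11% of all genes). Their mean signal was 10.14, 10.10, 10.19 and 10.27 in mandibular and 9.85, 9.97, 10.02 and 10.17 in maxillary molars, so that maxillary molar 4 lay within the mandibular range. The 18 dental mesenchyme genes had a median of -0.13 and means of 10.58, 10.56, 10.41 and 10.52 against 10.70, 10.59, 10.66 and 10.64, which did not overlap. At an unadjusted p under 0.05 there were 8 lower (5.62% of all genes) and 1 higher (9.11%). Without overlap 7 were lower, against 7.96% of all probe sets in either direction. In that list *Pax9* was higher (0.755% of all genes), and *Dlx1* and *Alcam*, a cell adhesion molecule, were lower (0.96%). *Alcam* had -0.54 (limma adjusted p = 0.0339), lost without mandibular molar 5 or maxillary molar 1 or 2 (0.103 to 0.119). These values move with the genes described here, and their part in them was not tested.

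Of 17 enamel knot genes *Wnt10a* and *Slit1*, an axon guidance ligand, were higher. A call upward was reached by 0.755% of all genes. *Slit1* had 6.87, 6.82, 6.89 and 6.79 against 6.43, 6.46, 6.47 and 6.65 (0.34, limma adjusted p = 0.0456), a call lost without mandibular molar 5 or 6 or maxillary molar 1, 2 or 3 (0.119 to 0.155), and mandibular molars 1 to 4 had a mean of 6.40. With mandibular molars 1 to 8 in the fit it had 0.12 (limma adjusted p = 0.616). Of 22 genes of keratinizing and glandular epithelium 2 were higher: *Aldh3b2*, a fatty aldehyde dehydrogenase, with 0.64 (limma adjusted p = 0.0444) and *Gjb2*, the gap junction protein connexin 26, with 0.52 (limma adjusted p = 0.0758). *Aldh3b2* lost its call without mandibular molar 6 or maxillary molar 1, 2 or 3 (0.109 to 0.143), and *Gjb2* without any sample but maxillary molar 4 (0.119 to 0.195). The keratins *Krt1*, *Krt13* and *Krt10* had -0.51, 0.63 and -0.27 and did not pass (limma adjusted p = 0.505, 0.7 and 0.418).

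Skeletal muscle genes were higher in mandibular molars, where 13 of the 51 measured passed upward (0.755% of all genes). *Myh3*, the embryonic myosin heavy chain, had 8.76, 8.42, 8.17 and 9.22 in mandibular and 6.36, 6.88, 6.50 and 6.98 in maxillary molars (1.96, standard error 0.23, limma adjusted p = 0.0116). Mandibular molar 8 was the highest and mandibular molar 7 the lowest of the group, and the lowest mandibular sample was 1.19 above the highest maxillary one. *Ttn* (titin), the spring of the sarcomere, had 7.79, 7.41, 7.33 and 8.19 against 6.17, 6.40, 6.10 and 6.65 (1.35, limma adjusted p = 0.029). *Neb* (nebulin), which spans the thin filament, had 7.94, 7.44, 7.36 and 8.42 against 6.25, 6.63, 6.24 and 6.70 (1.33, limma adjusted p = 0.0578). Mandibular molar 8 was again the highest for both. *Myl1*, a myosin light chain, had 9.55, 9.11, 8.98 and 10.37 against 7.46, 8.23, 7.92 and 8.30 (1.53, limma adjusted p = 0.0892).

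None of the 51 muscle genes passed downward, 50 had a positive difference, and the median was 0.51. At an unadjusted p under 0.05 there were 45 higher (9.11% of all genes), and at 35 all mandibular samples exceeded all maxillary ones (5.66% of all genes). The 13 include the regulators *Myf5* (0.48) and *Myod1* (0.61), which commit cells to muscle, the acetylcholine receptor subunit *Chrna1* (0.79), and the sarcomere genes *Myl4* (1.18), *Des* (0.89), *Mylpf* (0.69), *Tnnt1* (0.63) and *Tnnt3* (0.59). *Actn2*, the actinin of the Z line, which was not in the list, had 1.16 (limma adjusted p = 0.0921), a call lost without mandibular molar 5 or 6 or any maxillary molar (0.118 to 0.238). *Actc1*, the cardiac actin also made in embryonic muscle, had 1.55 and did not pass (limma adjusted p = 0.154). *Mef2c* had the one negative difference, -0.13, and is also expressed outside muscle.

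The mean signal of the 51 genes was 7.14, 7.03, 6.90 and 7.45 in mandibular molars 5 to 8 and 6.43, 6.56, 6.53 and 6.67 in maxillary molars, so that the groups did not overlap. It was 7.23, 7.95, 7.29 and 7.39 in mandibular molars 1 to 4 and 7.76 to 7.93 in lower incisors. Individual calls depended on single samples. The count of 13 was 1 without maxillary molar 2, 3 without mandibular molar 5 or maxillary molar 1 or 3, and 5 without mandibular molar 6, against 18 without mandibular molar 7. It was 8 with the 12 molar samples in the fit, and 1 by the methods' t-test. With 1 sample left out, *Myh3* passed in each fit, *Ttn* in all but that without maxillary molar 2 (0.1), *Neb* lost its call without mandibular molar 5 or maxillary molar 1, 2 or 3 (0.138 to 0.163), and *Myl1* without mandibular molar 5 or 6 or any maxillary molar (0.115 to 0.213). The part of dissected muscle tissue in the jaw differences was not tested.

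**Figure D4:**
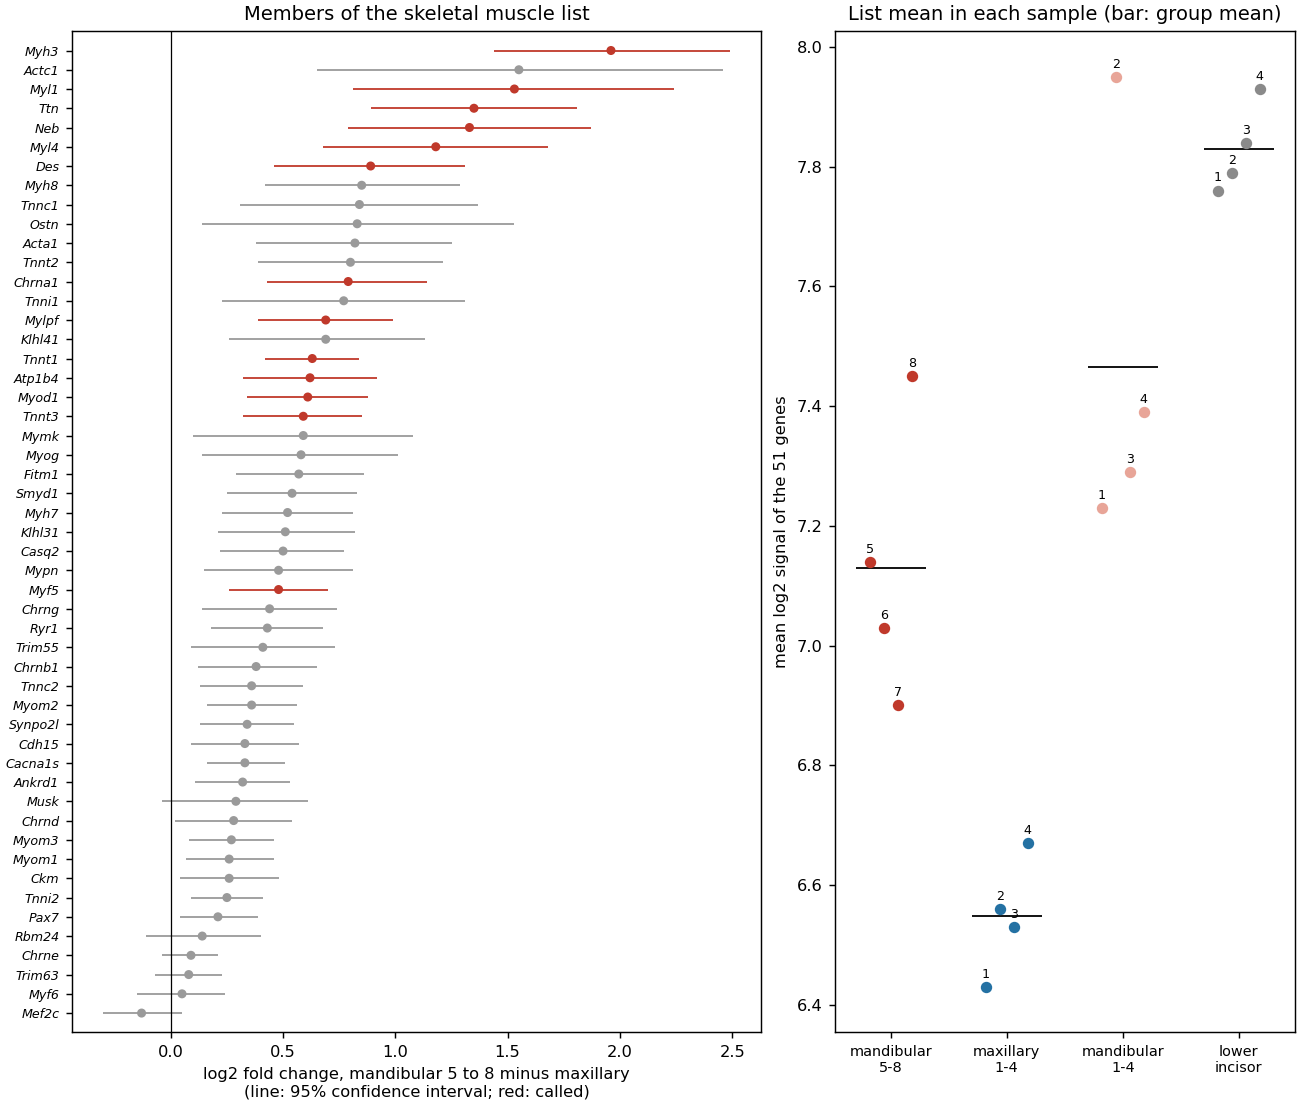
Skeletal muscle genes. Left, log2 fold change of mandibular molars 5 to 8 minus maxillary molars for each of 51 genes with its 95% confidence interval, red where the gene was called; *Mef2c* is the only point below 0. Right, mean log2 signal of the 51 genes in each sample, numbered as in the labels, with group means as bars. Maxillary molars have the lowest 4 values, and lower incisors and mandibular molars 1 to 4, which were outside the test, are at or above 7.23.

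Promoters of a receptor and a sarcomere gene of this list are shown because its members were high in the same samples. They are the 250 bases before the RefSeq start in GRCm38.p6, at chr2:73580339-73580588 on the minus strand for *Chrna1* and chr7:127211358-127211607 on the plus strand for *Mylpf*. Capitals mark the E-box CAGCTG, a core bound by the MyoD family, which reads alike on both strands.
Chrna1: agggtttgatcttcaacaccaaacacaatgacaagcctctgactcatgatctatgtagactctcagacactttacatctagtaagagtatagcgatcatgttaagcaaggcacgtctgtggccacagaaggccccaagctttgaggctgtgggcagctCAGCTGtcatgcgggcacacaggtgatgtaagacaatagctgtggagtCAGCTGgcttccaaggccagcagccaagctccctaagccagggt
Mylpf: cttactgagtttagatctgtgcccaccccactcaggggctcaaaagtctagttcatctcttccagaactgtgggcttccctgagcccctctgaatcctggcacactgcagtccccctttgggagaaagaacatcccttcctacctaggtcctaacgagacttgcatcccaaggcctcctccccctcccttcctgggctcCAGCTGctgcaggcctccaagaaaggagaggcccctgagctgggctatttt
*Chrna1* has 2 matches and *Mylpf* 1. Of the 13 called muscle genes 10 had a promoter in the table, and the element was in 4 of them, those of *Chrna1*, *Des*, *Myl1* and *Mylpf*. It was in 17 of 47 promoters of the muscle list (36.2%) and in 4271 of all 32851 (13%), a gene being able to have several.

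Neuronal genes moved in both directions. *Nefl*, the light neurofilament subunit, had 8.63, 7.86, 8.72 and 8.21 in mandibular and 6.57, 6.70, 6.17 and 6.67 in maxillary molars, more than 1.1 apart at the nearest samples (1.83, standard error 0.20, limma adjusted p = 0.00875). Its neighbour *Nefm*, the medium subunit, had 6.23, 6.02, 6.34 and 6.14 against 5.67, 5.58, 5.84 and 5.65 (0.50, limma adjusted p = 0.0408, or 0.97 with mandibular molars 1 to 8), and mandibular molar 6 was the lowest of its group for both. *Gap43*, a growth cone protein, had 7.95, 8.15, 8.45 and 7.99 against 8.75, 8.75, 8.86 and 8.63 (-0.61, limma adjusted p = 0.0598), and *Scg2*, a secretory granule protein, had -0.56 (limma adjusted p = 0.0202). The heavy subunit *Nefh* had -0.02 and *Prph* 0.05.

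Thus 2 of 24 neuron and axon genes were higher (0.755% of all genes) and 2 lower (0.96%), with a median of 0.04. The higher count was 1 without mandibular molar 5 or maxillary molar 1 or 2, where *Nefm* had an adjusted p of 0.118 to 0.131 and *Nefl* passed. *Gap43* lost its call without any sample but mandibular molar 7 and maxillary molar 4 (0.134 to 0.166). Mandibular molars 1 to 4 had 9.15 ± 0.19 for *Nefl* and 7.13 ± 0.22 for *Nefm* (SD, n = 4). None of the 9 Schwann cell and glia genes passed by limma, 1 had an unadjusted p under 0.05 (14.7% of all genes), and *Sox10* had a difference of -0.06.

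Genes of other cell types that a dissected germ can hold were measured in the same way. None of 15 endothelial genes passed by limma (median 0.07, and 3 at an unadjusted p under 0.05, a level reached by 14.7% of all genes), none of 14 macrophage genes (median 0.19, and 4) and none of 8 mast cell genes (median 0.31, and 6). The 7 erythroid genes had a median of 0.29 and the 21 proliferation genes one of 0.04, with none called by limma and 0 at an unadjusted p under 0.05. *Cpa3*, the mast cell carboxypeptidase, had 9.22, 8.44, 8.89 and 9.23 in mandibular and 6.98, 7.58, 6.77 and 8.72 in maxillary molars (1.43, 95% confidence interval 0.51 to 2.36, limma adjusted p = 0.189). Maxillary molar 4 lay within the mandibular range, and without it the adjusted p was 0.0368. *Slc4a1*, the red cell anion exchanger, had 7.96, 8.71, 10.18 and 7.97 against 7.79, 7.83, 8.61 and 7.94, so that mandibular molar 7 and maxillary molar 3 were the high samples of their groups (0.67, limma adjusted p = 0.612).

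A call downward was reached by 0.96% of all genes. Of 9 osteoblast genes *Sp7* (osterix), required for osteoblasts, was lower, with 9.22, 9.63, 9.04 and 9.23 against 9.81, 9.95, 9.86 and 9.87 (-0.59, limma adjusted p = 0.0758), and it lost the call without any sample but mandibular molar 6 (0.108 to 0.199). *Ibsp* and *Alpl*, of bone matrix and its mineralization, had -0.89 and -0.44 and did not pass (limma adjusted p = 0.228 and 0.234). Of 19 cartilage genes *Sox6* was lower (-0.44, limma adjusted p = 0.0509), lost without mandibular molar 5, 6 or 8 or maxillary molar 1, 2 or 3 (0.108 to 0.155), while *Sox9* and *Col2a1* had -0.02 and 0.15. How far bone or vessels dissected with the germ enter the differences was not tested.

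**Figure D5:**
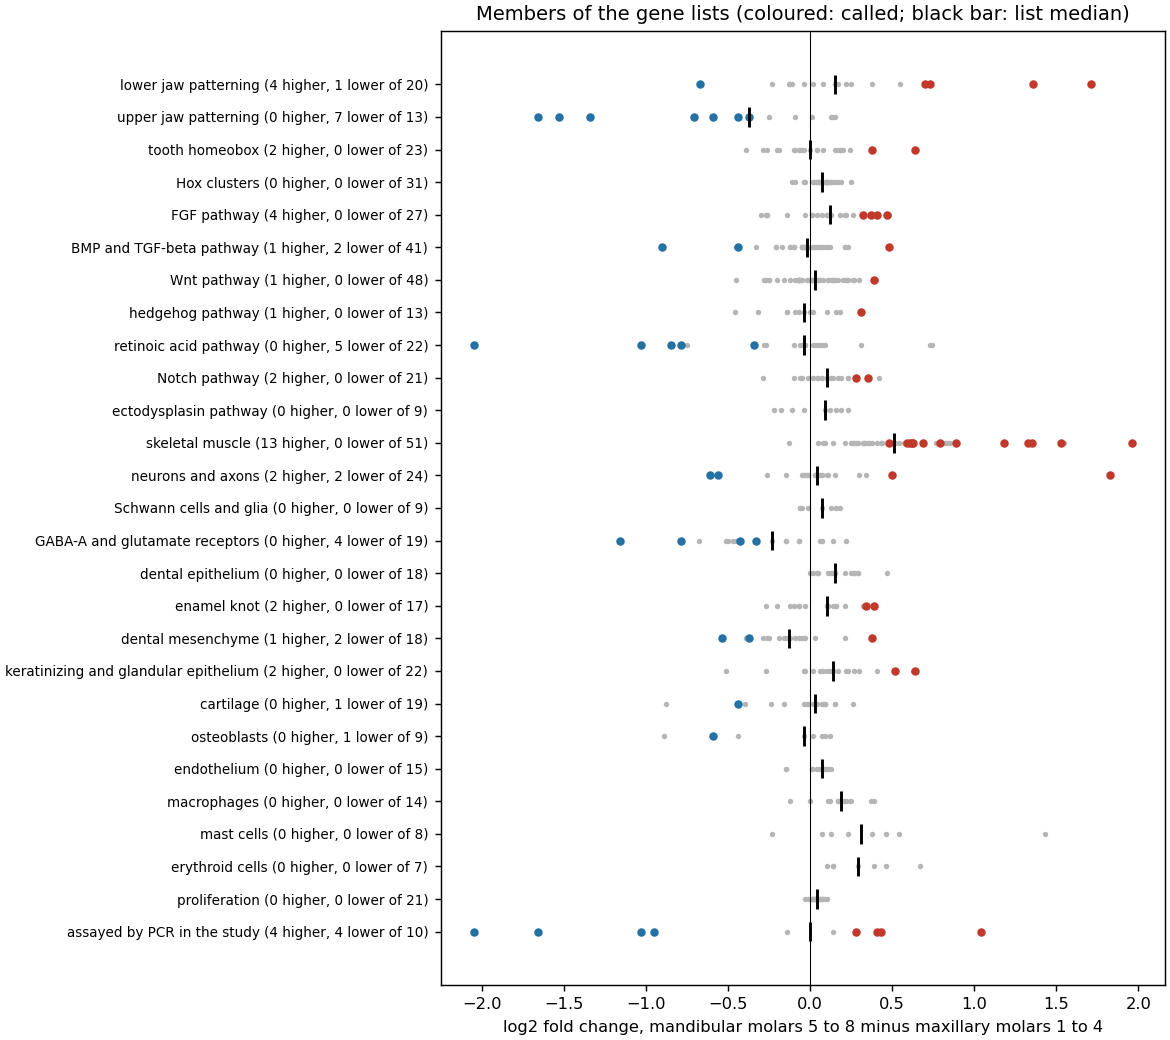
Log2 fold change of mandibular molars 5 to 8 minus maxillary molars for the members of 27 gene lists, 1 line per list. Grey points did not pass, red and blue points were called higher or lower at an adjusted p under 0.1 and a fold change above 1.2, and black bars are list medians. Skeletal muscle has the highest median at 0.51 and upper jaw patterning the lowest at -0.37.

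Further genes higher in mandibular molars by a fold change above 2 were *Slc25a21*, a mitochondrial oxodicarboxylate carrier, *Thbs4* (thrombospondin 4), a matrix protein of tendon and muscle, *Pamr1*, a secreted protein linked to muscle regeneration, and *Adamtsl3*, an ADAMTS-like matrix protein. *Slc25a21* had 6.71, 6.31, 6.96 and 6.58 against 5.53, 5.51, 5.66 and 5.52 (1.09, limma adjusted p = 0.0096). *Thbs4* had 9.47, 9.86, 9.79 and 9.89 against 8.11, 8.34, 8.33 and 9.11 (1.28, limma adjusted p = 0.0404), and maxillary molar 4 came within 0.36 of the mandibular range. *Pamr1* had 7.02, 7.41, 8.24 and 7.22 against 6.20, 5.96, 6.07 and 6.50 (1.29, limma adjusted p = 0.0758), with mandibular molar 7 well above its group. *Thbs4* and *Pamr1* lost their calls without mandibular molar 6 or 8 or maxillary molar 1, 2 or 3, with an adjusted p of 0.102 to 0.135 and of 0.122 to 0.199.

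Some called genes lay side by side. Of the 304 called genes placed on GRCm38.p6, 24 pairs were next to each other among the 17063 genes kept and placed, 22 of them in the same direction. Besides *Pou3f3* with *Pantr1*, *Cyp26c1* with *Cyp26a1* and *Nefl* with *Nefm*, they include *Pax9* with *Slc25a21* (0.38 and 1.09), *Irx5* with the noncoding *Crnde* (-0.44 and -0.67), *Slitrk4* with *Slitrk2* (-0.66 and -0.63), which encode synaptic adhesion proteins, and *Maoa* with *Maob* (-0.46 and -0.83), the monoamine oxidases. The pairs in opposite directions were *Acss3* with *Ppfia2* (-0.36 and 0.50) and *Lin7a* with *Myf5* (-0.42 and 0.48). Related genes side by side, such as *Slitrk4* and *Slitrk2* or *Aldh3b3* and *Aldh3b2*, may share probes, which was not tested. The number of such pairs in other sets of 304 genes was not taken, so the 24 and 22 are a description only.

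The 10 genes that the study assayed by PCR after these arrays had been read gave 4 calls in each direction here, which is no independent evidence since the study chose them on these samples. *Cyp26c1*, *Alx1*, *Rorb* and *Itga8* were lower, and *Adamtsl3*, *Fgfr4*, *Prkcq* and *Dll1* were higher. *Itga8*, an integrin chain, had 8.81 ± 0.19 in mandibular and 9.76 ± 0.07 in maxillary molars (SD, n = 4 each), a difference of -0.95 (limma adjusted p = 0.00577), and *Adamtsl3* had 7.56, 7.55, 7.15 and 7.59 against 6.56, 6.65, 6.16 and 6.32 (1.04, limma adjusted p = 0.0166). Mandibular molar 7 was the lowest of its group for *Adamtsl3* and still above every maxillary sample. *Prkcq*, a protein kinase C, had 0.43 (limma adjusted p = 0.0962), lost without any sample but mandibular molar 7 (0.108 to 0.235), and *Fgfr4* lost its call without mandibular molar 5 or 7 or any maxillary molar (0.109 to 0.188). *Wnt11* and *Gli1* had 0.14 (0.01 to 0.26) and -0.14 (-0.27 to 0.00) and did not pass (limma adjusted p = 0.358 and 0.398).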

How the data were processed

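The authors deposited log2 signals of 35556 probe sets after RMA in Affymetrix Expression Console 1.1 (submitters' processing notes), a method that subtracts background, quantile-normalizes the arrays and summarizes probes. The genome build is not given in the sources used here. Probe sets carried 1 gene symbol (21789), several (1621) or none (12146), and genes were named only from a single symbol, by the probe set with the highest mean over the 16 samples. Linear models were fitted to the 8 samples (lmFit and eBayes, limma 3.58.1, R 4.3.3) without a block and with Benjamini-Hochberg adjustment over 28686 probe sets. The fold thresholds of 2 and 1.2, the adjusted p of 0.1 and the signal limit of 5 follow the study. The legend of the study names a t-test, called the methods' t-test, which was run as an alternative. Named genes were up to 15 per direction with the largest changes at fold 2, up to 4 per list (2 where none was called), the 10 PCR genes and a few tooth genes. *Irx3*, *Irx5*, *Dhrs3*, *Cited1* and the other genes beyond that rule were chosen after their values were seen. Members and lists were chosen with earlier results of these data known. The fit was tested on simulated data in which 50 probe sets differed at each of 4 sizes: 40, 47, 49 and 49 were recovered at log2 changes of 0.5, 1, 1.5 and 2 by the adjusted p, and 18 of 28486 unchanged ones were called. The simulated noise was drawn separately for each probe set. It held no variation shared by many genes of a pool, so it cannot show how calls fare under such variation. Promoters are from RefSeq on GRCm38.p6. The study left an incisor array out for high background; it is not named in the sources used here, and all 4 were kept. The number of arrays limits the precision.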

Additional observations from a re-analysis of the deposited data

Results flagged for a closer look

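In each of 182 groups of 4 samples, those of the 91 named genes in either jaw, a sample was marked where its gap to the next sample exceeded Dixon's 95% critical share of the whole range. This marked 8 groups, and chance marks about 1 in 20. Mandibular molar 7 was marked for *Pou3f3*, with 8.56 above the 7.66 to 7.75 of the other samples, and for *Adamtsl3*, with 7.15 below 7.55 to 7.59. Maxillary molar 3 was marked for *Slc25a21*, with 5.66 above 5.51 to 5.53, for *Fgf18*, with 8.83 below 9.02 to 9.04, for *Gdf10*, with 8.71 below 9.01 to 9.05, and for *Hemgn*, with 6.59 above 5.76 to 5.89. Mandibular molar 6 was marked for *Gjb2*, with 8.14 above 8.06 to 8.07, and maxillary molar 4 for *Sox6*, with 9.60 below 9.85 to 9.90.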

How the results depend on the processing

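No paired analysis was possible because the groups compared share no replicate numbers. These numbers are labels only and do not show whether pools of both jaws shared embryos or litters, which is not stated. The fit treated all pools as unrelated, and a pairing of them by origin was not tested. None of the 61 called genes reversed its direction. Of the other 30 named genes 5 did: with mandibular molars 1 to 8 *Shh* went from 0.16 to -0.34, *Dsc3* from 0.29 to -0.02 and *Mcm3* from 0.09 to -0.02, and with a sample left out *Egr2* (0.18) had -0.03 to 0.32 and *Bmp4* (-0.03) had -0.06 to 0.03. The methods' t-test gave 6 probe sets higher at a fold change above 2, against 13, and 38 higher and 74 lower at a fold change above 1.2, against 155 and 213. By that test 0 of the 4 FGF genes, 1 of the 13 muscle genes, 1 of the 2 neuron genes and 2 of the 4 receptor subunits passed. With mandibular molars 1 to 8 the counts were 29 higher and 28 lower at a fold change above 2, 293 and 342 above 1.2, 27 muscle genes and 8 receptor subunits. One probe set per gene, with the model fitted and adjusted on those 17078 alone, gave 297 higher above 1.2, 32 muscle genes and 8 receptor subunits. All 16 samples in the fit gave 4 upper jaw genes, against 7, 1 FGF gene and 2 receptor subunits. With the 12 molar samples, an alternative chosen after seeing the data because an incisor array had high background, there were 98 higher above 1.2, 7 upper jaw genes, 2 FGF genes, 8 muscle genes and 4 receptor subunits. The cause was not tested. Leaving out each sample gave 6 to 17 higher and 17 to 26 lower probe sets at a fold change above 2, and 34 to 167 and 79 to 206 above 1.2. It gave 4 to 5 lower jaw genes, 7 upper jaw genes, 0 to 3 FGF genes, 4 to 5 retinoic acid genes, 1 to 18 muscle genes, 1 to 2 neuron genes and 2 to 5 receptor subunits. Of the 61 called genes, 61 kept their call under the filter above 6, array weights, and trend with robust variances, 60 with values floored at 5, 56 with no filter, quantile normalization or median centring, 59 with mandibular molars 1 to 8, 51 with all 16 samples, 52 with the 12 molar samples and 30 by the methods' t-test.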
